A study of Mus musculus with 27 samples.

Results

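Enteroendocrine cells are the hormone-producing cells of the gut epithelium. Their genes were followed here through 10 members, of 22524 genes in the data, listed by name as known genes of the lineage, although earlier results of these data were known when the list was made. The list comprised Neurog3 and Neurod1 (transcription factors of the lineage), Chga and Chgb (granins, proteins of the secretory granule), the peptide hormone genes Gcg, Gip, Cck and Sst, the tachykinin precursor gene Tac1 and Tph1 (the enzyme that starts serotonin synthesis outside the brain). All 10 symbols matched 1 gene each.

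RNA was sequenced from organoid cultures, m-ICc12 cells and mouse embryonic fibroblasts (MEFs) in 27 libraries. The organoids were grown from crypts of the distal jejunum of 9 adult male wild-type C57BL/6 mice, 3 from each of the facilities SR and SE (both specific pathogen-free, SPF) and GF (germ-free), with a pair of libraries from each culture, of which the labels call 1 untreated and 1 exposed to TNF (5 ng/mL for 8 h). m-ICc12, an immortalised line from mouse small intestine, gave 3 such pairs of libraries, and MEFs, fibroblasts of C57BL/6 origin, gave 3 untreated libraries. All organoids had been frozen, revived and passaged in the same commercial medium, and the 3 mice of a facility were cohoused littermates, so that facility and litter cannot be told apart. The labels do not say whether the m-ICc12 and MEF libraries came from separate cultures, so p-values that rest on them may measure technical spread.

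The treatment of a library follows its sample label throughout. In all 12 pairs the name of the deposited file carries the opposite treatment, and Nfkbia, an NF-kB target that TNF induces, went against the labels. In the 9 organoid libraries labelled untreated it lay between 148 and 227 CPM, the read count normalised to library size. In the 9 labelled TNF-treated it lay between 23.6 and 36.4 CPM. The log2 fold change was -2.66 ± 0.10 (SE) in organoids and -2.13 ± 0.23 (SE) in m-ICc12 cells. The treatment is nevertheless given as labelled, and an exchange of the labels within each pair turns the sign of the differences between them. An exchange would also make the organoid and m-ICc12 libraries labelled untreated, which are used to compare the systems, the TNF-exposed ones. Comparisons between cultures and facilities used both libraries of a culture and do not depend on the labels. Total counts on genes ranged from 11440041 to 35283218 in the organoid libraries, from 6071103 to 43843615 in the m-ICc12 libraries and from 25187095 to 41721039 in the MEF libraries. A count of 3, taken as the detection floor, corresponded to between 0.0684 and 0.494 CPM. CPM values carry TMM normalisation, which scales libraries so that most genes are level.

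Enteroendocrine cells arise in the crypt from secretory progenitors. Neurog3 is switched on briefly and commits a progenitor to the lineage, and Neurod1 follows in the differentiating cell. Mature cells then store hormones in dense-core granules with the granins and release them on nutrient contact, and they are a rare cell type scattered among enterocytes, goblet cells and Paneth cells. In bulk RNA, fewer cells of a type and less RNA per cell cannot be told apart.

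On GRCm38, by the Ensembl identifiers of the count files, the lineage factors are Neurog3 (ENSMUSG00000044312) at chr10:62133090-62134763 and Neurod1 (ENSMUSG00000034701) at chr2:79452521-79456751, and the granins are Chga (ENSMUSG00000021194) at chr12:102554969-102565028 and Chgb (ENSMUSG00000027350) at chr2:132781278-132795079. The hormone genes are Gcg (ENSMUSG00000000394) at chr2:62474530-62483650, Gip (ENSMUSG00000014351) at chr11:96024545-96030831, Cck (ENSMUSG00000032532) at chr9:121489824-121495694 and Sst (ENSMUSG00000004366) at chr16:23889573-23890958. The remaining members are Tac1 (ENSMUSG00000061762) at chr6:7554879-7565834 and Tph1 (ENSMUSG00000040046) at chr7:46644641-46672537.

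Promoters are shown for the hormone genes that head the comparison of cultures, Gcg and Gip, and for Cck, whose level followed that of Gcg most closely across cultures. Each sequence holds the 250 bases before the RefSeq transcription start on GRCm38.p6, read 5′ to 3′ on the strand of the gene. The Gcg sequence is chr2:62483654-62483903 on the minus strand, the Cck sequence is chr9:121495695-121495944 on the minus strand and the Gip sequence is chr11:96024295-96024544 on the plus strand. Capitals mark CAGATG, a form of the E-box that NeuroD-type factors can bind.
Gcg: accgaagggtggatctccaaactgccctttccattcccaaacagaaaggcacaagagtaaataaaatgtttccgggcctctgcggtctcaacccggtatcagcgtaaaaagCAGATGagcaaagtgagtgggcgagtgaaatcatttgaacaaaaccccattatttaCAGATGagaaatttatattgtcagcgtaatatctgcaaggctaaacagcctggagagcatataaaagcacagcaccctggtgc
Cck: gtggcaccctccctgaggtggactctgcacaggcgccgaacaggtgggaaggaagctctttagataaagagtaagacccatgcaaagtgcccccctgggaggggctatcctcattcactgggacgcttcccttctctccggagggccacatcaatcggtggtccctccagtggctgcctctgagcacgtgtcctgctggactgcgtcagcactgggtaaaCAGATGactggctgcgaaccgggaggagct
Gip: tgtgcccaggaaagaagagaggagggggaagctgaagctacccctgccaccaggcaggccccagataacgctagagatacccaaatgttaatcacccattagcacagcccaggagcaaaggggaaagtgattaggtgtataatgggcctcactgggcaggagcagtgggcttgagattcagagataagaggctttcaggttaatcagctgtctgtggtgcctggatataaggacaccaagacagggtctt
CAGATG, or CATCTG on the other strand, occurred in 14.4% of all 32851 RefSeq promoter windows of this length. Among the members it was present in Gcg (2 copies), Cck (1 copy) and Tac1 (1 copy) and absent from the other windows. TGACGTCA, the full cyclic AMP response element, reads the same on both strands and occurred in 1.55% of windows. Chgb and Sst each held 1 copy and the other members none. Their windows lie partly inside a longer transcript in the gene annotation used here and are not printed. A match is a description of the letters and not of a bound site.

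All 10 genes were detected in organoids. Gcg, which encodes glucagon and GLP-1, was highest, at 139 to 328 CPM (median 255) over the 18 organoid libraries. Chgb followed at 48.3 to 133 CPM (median 90), Chga at 31.0 to 65.6 CPM (median 46.9) and Gip, the incretin of K cells, at 15.6 to 82.9 CPM (median 37.8). Cck, the hormone that contracts the gallbladder, lay at 12.1 to 28.7 CPM (median 19.6) and Neurog3 at 9.01 to 27 CPM (median 17.8). Sst, the inhibitory hormone of D cells, lay at 6.69 to 33.0 CPM (median 11.3), Neurod1 at 1.99 to 14.2 CPM (median 6.97) and Tac1 at 1.08 to 10.5 CPM (median 5.26). Tph1 was lowest, at 0 to 4.74 CPM (median 1.47), and 2 of the 18 organoid libraries held no Tph1 count.

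Levels between genes were compared per length, taken as the union of a gene's annotated exons and not as the length of the transcript present. Per kilobase of exon the medians over the 18 organoid libraries ran from 171 CPM for Gcg through 55.1 for Gip, 32.8 for Chgb, 17.0 for Chga, 15.7 for Sst, 15.0 for Cck, 10.7 for Neurog3, 2.55 for Neurod1 and 1.55 for Tac1 to 0.238 for Tph1. Gip thus stood above both granins on this scale, though below them in CPM. Neighbours in this order mostly had overlapping ranges, and only Neurog3 and Neurod1 were apart. Chga exceeded Sst in 8 of 18 libraries and Sst exceeded Cck in 10 of 18, so these neighbours had no fixed order. Gcg exceeded Gip, and Chgb exceeded Chga, in 18 of 18 libraries.

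Both cell lines were close to empty of these transcripts. Chga had 0 to 4 counts in each of the 6 m-ICc12 libraries (0 to 0.174 CPM) and 2 to 4 in each of the 3 MEF libraries. Gcg, the most abundant member, had 2 to 29 counts in the m-ICc12 libraries (0.0481 to 1.39 CPM) and 8 to 12 in the MEF libraries (0.201 to 0.460 CPM). Tph1 had 0 counts in all 6 m-ICc12 libraries and Neurog3 had 0 in all 3 MEF libraries. No range of a member in m-ICc12 cells or MEFs reached its range in organoids except for Tph1, which the organoid libraries with 0 or 1 count brought down to the level of the cell lines.

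**Figure D1:**
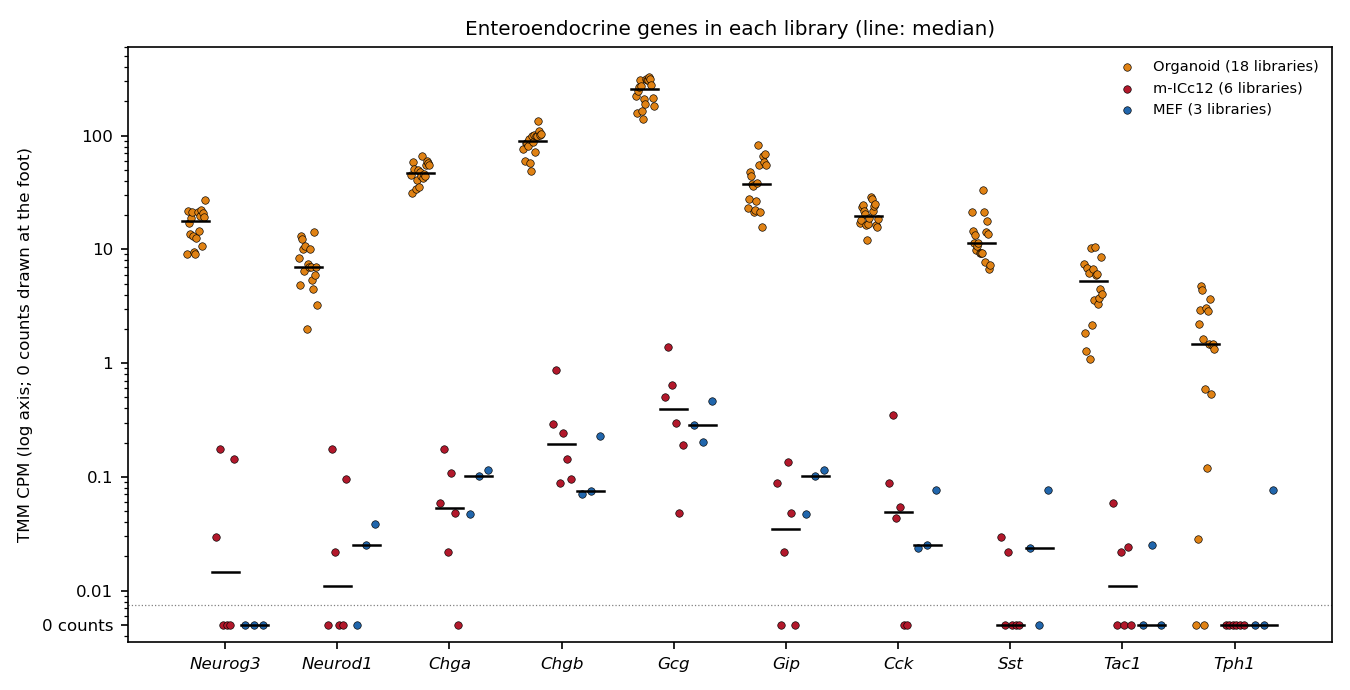
TMM-normalised CPM (log axis) of the 10 enteroendocrine genes in each of the 27 libraries, with organoids, m-ICc12 cells and MEFs side by side, a line at each group's median and libraries without a count drawn at the foot. Medians in organoids lie between 1.47 CPM (Tph1) and 255 CPM (Gcg), and the cell lines stay at or below 1.39 CPM.

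In the 9 organoid libraries against the 3 m-ICc12 libraries, all labelled untreated, 10 of 10 members were called higher at an adjusted p under 0.05 (edgeR's quasi-likelihood test). Of the 12962 genes tested, 31.6% were higher and 29.3% lower. However, 9 of the 10 members reached the count minimum through the organoid libraries alone, so that their direction was fixed by the filter and the count is a description. Gcg was the 1 member that also reached it in m-ICc12 cells. From the pooled counts, Chga was 1172-fold higher (95% exact counting interval 502 to 3611), Gcg 608-fold (458 to 825), Chgb 536-fold (347 to 878), Gip 819-fold (376 to 2233) and Cck 473-fold (202 to 1457). Tac1, which encodes substance P and neurokinin A, gave the lowest ratio with a count in both groups, 188-fold (73.1 to 690). Tph1 was at least 48.5-fold higher, against a floor of 3 counts over the m-ICc12 group. Neurog3 and Neurod1 each had 1 count in m-ICc12 cells, so that their ratios of 1710 (307 to 67547) and 1091 (196 to 43126) are poorly bounded. The intervals cover counting error only.

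Against MEFs, 10 of 10 members were called higher, where 34.6% of 13144 genes were higher and 32.6% lower. Here too 9 of the 10 were tested through the organoid libraries alone, Gcg again being the exception, which fixed their direction. The comparison shares its 9 organoid libraries with the one before. Chgb was 819-fold higher (469 to 1586), Gcg 837-fold (592 to 1223), Chga 597-fold (315 to 1307), Gip 501-fold (264 to 1096) and Neurog3 at least 523-fold. Tph1 differed least, 66.8-fold (18.3 to 554), with a log2 fold change of 5.76 ± 1.88 (SE) and an adjusted p of 0.013. Tph1 was among the 9, so its call, with or without a replicate, is a description and not a test of direction. That call ended without MEF replicate 1 (5.16, adjusted p = 0.058) or without MEF replicate 2 (5.18, adjusted p = 0.053), which left 9 of 10 members. MEFs held their fibroblast transcripts, with Col1a1 at 1804 to 2410 CPM against at most 4.57 CPM in organoids. In m-ICc12 cells the summed level of 6 enterocyte markers was 19.4 to 51.2 CPM, compared with 1761 to 6138 CPM in organoids. Within the m-ICc12 sum, Vil1 alone lay at 17.3 to 41.3 CPM.

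In wider lists of endocrine genes, too, most that were tested reached the count minimum through the organoids alone. This held for 15 of 18 further transcription factors of the endocrine lineage against m-ICc12 cells, and these 15 were the ones called higher. None of the other 3, Sox4, Rfx3 and Hhex, was called. Of the 4 factors with enough counts in MEFs, Sox4 (0.86 ± 0.12 (SE)) and Rfx3 (0.81 ± 0.33 (SE)) were higher in organoids on the log2 scale and Runx1t1 (-4.77 ± 0.98 (SE)) and Hhex (-4.10 ± 1.45 (SE)) lower. Insm1, a repressor that acts downstream of Neurog3, lay at 7.10 to 22.3 CPM in organoids, with 5 of 6 m-ICc12 libraries at 0. Sox4 was abundant in every system and its median was 212 CPM in organoids, 230 CPM in m-ICc12 cells and 126 CPM in MEFs. Of 20 granule and exocytosis genes, 15 were tested against m-ICc12 cells, 13 of them through the organoids alone. The 2 with enough counts in m-ICc12 cells went opposite ways. The calcium channel gene Cacna1a was higher in organoids, with medians of 9.87 and 2.95 CPM. Cpe, a carboxypeptidase of hormone processing, was lower, with a median of 34.5 CPM in organoids against 297 CPM in m-ICc12 cells and 432 CPM in MEFs. Of 12 further hormone genes, 5 were tested against m-ICc12 cells, and the 4 called higher were tested through the organoids alone. The neurotensin gene Nts led them in organoids (median 23.1 CPM), ahead of Pyy (9.50 CPM), the ghrelin gene Ghrl (7.56 CPM) and Sct (5.89 CPM), whereas Vip and Cartpt, named here for their values, had no count in any library.

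Serotonin and nutrient-sensing genes were unevenly present. Ddc, which makes serotonin from the Tph1 product, lay at 39.4 to 75.7 CPM in organoids, and the monoamine oxidase gene Maoa at 239 to 476 CPM. The vesicular transporter Slc18a1 had a median of 7.22 CPM. Of 8 serotonin genes, 6 were tested against m-ICc12 cells, 5 of them with enough counts in those cells. Of these 5, Ddc (4.08 ± 0.32 (SE)), Maoa (3.50 ± 0.24 (SE)) and Gch1 (1.26 ± 0.38 (SE)) were higher in organoids on the log2 scale, Slc18a1 was not called (2.17 ± 1.01 (SE)), and the ion channel gene Trpa1 was lower (median 0.0298 CPM in organoids, 24.2 CPM in m-ICc12 cells). Of 11 nutrient-sensing receptors, 5 were tested in that comparison, and the 4 called higher were tested through the organoids alone. The fatty acid receptors Ffar4 and Ffar1 had medians of 8.69 and 4.68 CPM in organoids.

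Neurons express several of the members, Tac1 and Sst included, and mast cells make serotonin through Tph1. Among the neuronal markers, Chat and Nos1 had no count in the 18 organoid libraries, Prph had a count in 1 of them, Elavl4 in 6 (up to 2.19 CPM), Nefl in 8 (up to 1.43 CPM) and Elavl3 in 11 (up to 1.31 CPM). The summed level of 23.0 to 44.4 CPM was mostly Ret (22.6 to 43.4 CPM). Of 6 mast cell markers, Cpa3, Fcer1a, Mcpt1 and Mcpt4 had no count in any organoid library, and Kit (6.39 to 29.1 CPM) made up nearly the whole sum. The leukocyte gene Ptprc had no count in 16 of 18 organoid libraries.

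Single cultures differed in the levels of some of these genes. With the treatment label in the fit, the F-test across the 9 organoid cultures called 4 of 10 members, where it called 12.0% of the 12104 genes tested. The called genes were Gcg (F = 18.5, adjusted p = 3.3e-08), Gip (F = 15.0, adjusted p = 3.8e-07), Chgb (F = 7.93, adjusted p = 0.00019) and Sst (F = 4.19, adjusted p = 0.017). The test sets the difference between cultures against the spread between the 2 libraries of a culture, all from edgeR.

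For Gcg the level over both libraries of a culture was 184, 253 and 287 CPM in the SR cultures, 155, 199 and 307 CPM in the SE cultures and 312, 293 and 192 CPM in the GF cultures. These are the cultures Z908, Z909 and Z910, Z911, Z912 and Z913, and Z917, Z918 and Z919, in this order. Low and high cultures thus occurred within each facility, and the highest (culture Z917) lay 2.01-fold above the lowest (culture Z911). The 2 libraries of a culture stayed near each other, with a median difference of 0.18 and a largest difference of 0.50 on the log2 scale.

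Gip varied more. Its culture levels were 25.6, 44.9 and 36.4 CPM in SR, 21.2, 32.5 and 67.5 CPM in SE and 18.8, 61.6 and 59.7 CPM in GF. Culture Z917, highest for Gcg, was lowest for Gip, and culture Z913 exceeded it 3.60-fold. Both libraries of the cultures Z913, Z918 and Z919 lay at 54.6 CPM or more, and no library of another culture passed 47.4 CPM.

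Chgb ranged from 54.2 CPM in culture Z911 to 119 CPM in culture Z918 (2.20-fold). The other SR and SE cultures lay between 66.1 and 92.4 CPM, and the 3 GF cultures at 98.6, 119 and 101 CPM. Sst ranged from 6.92 CPM in culture Z919 to 26.7 CPM in culture Z913 (3.85-fold). Culture Z913 stood alone, with 33.0 and 21.3 CPM in its 2 libraries, and the next culture, Z908, had 17.2 CPM. Without culture Z913 the Sst call ended (adjusted p = 0.39), as it did without culture Z919 (adjusted p = 0.053), which left 3 of 10 members called.

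Chga, Cck, Neurog3, Neurod1, Tac1 and Tph1 were not called (adjusted p from 0.23 to 0.96). Chga was the steadiest member, with culture levels from 36.8 to 56.6 CPM (coefficient of variation 15.5%), against 45.0% for Gip and 44.9% for Sst. Tac1 differed 2.58-fold between its lowest and highest culture, but in 5 of 9 cultures its 2 libraries differed more than 2-fold from each other. Culture Z909 had 37 Tac1 counts in one library and 229 in the other.

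Tph1 was the most uneven member. Culture Z908 had 0 and 1 count in its 2 libraries, and culture Z910 had 82 and 111 counts (4.74 and 4.43 CPM). Culture Z911 had 43 counts in one library and 0 in the other, and culture Z913 had 3 and 77. In 5 of 9 cultures the libraries differed more than 2-fold. In edgeR the adjusted p was 0.29, while DESeq2 called the gene (adjusted p = 0.040) and thereby 5 of 10 members. DESeq2 also called more of the 12104 genes, 2556 in place of 1448. Its partner in serotonin synthesis, Ddc, was not called across cultures.

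**Figure D2:**
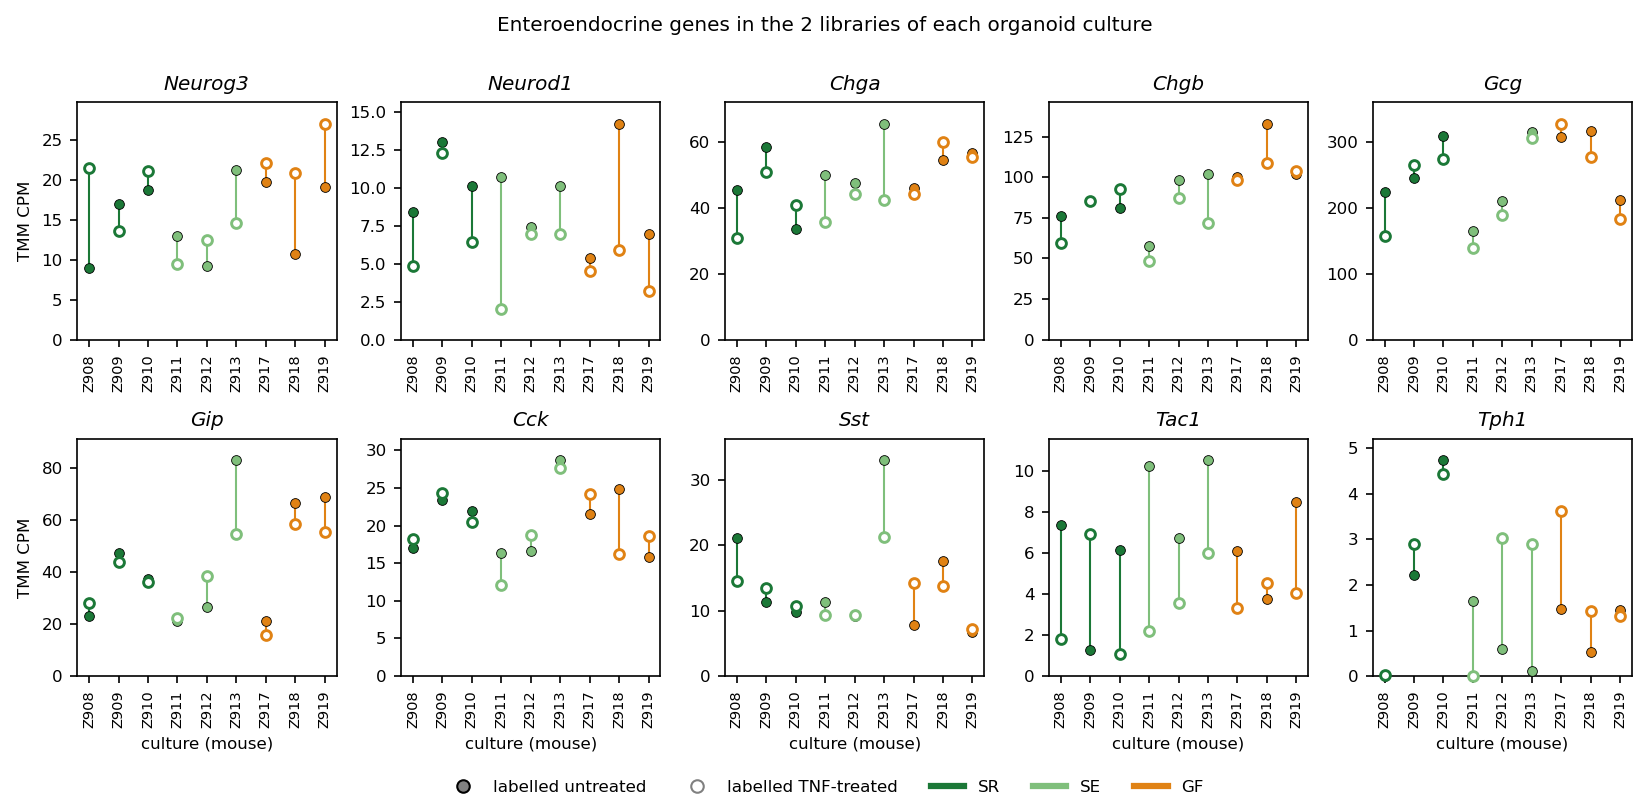
TMM-normalised CPM (linear axes from 0) of each gene in the 2 libraries of the 9 organoid cultures, filled for labelled untreated and open for labelled TNF-treated, coloured by facility. For Gcg and Gip the 2 points of a culture lie closer together than the lowest and highest cultures do, though several cultures overlap. For Tac1 and Tph1 the points of a culture often lie far apart, as for Tac1 in culture Z909 (1.27 and 6.91 CPM).

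Markers of some other epithelial cell types also differed across cultures, where 12.0% of all genes tested were called. All 6 enterocyte, 6 goblet cell and 6 stem cell markers were called, with 2 of 6 Paneth cell markers and 0 of 4 tuft cell markers tested. Among endocrine transcription factors 1 of 17 tested was called (Foxa1), among granule genes 1 of 15 (Cpe), among hormones 1 of 6 (Nts), among serotonin genes 1 of 5 (Maoa) and among Notch and secretory-fate genes 1 of 10 (Hes1). The difference between these lists was not tested. Summed enterocyte markers ranged from 1761 to 6138 CPM over the organoid libraries and summed goblet markers from 1267 to 1874 CPM. Their part in the differences of Gcg, Gip, Chgb and Sst was not tested.

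Across cultures, none of the 45 pairs of members was called. Of these, 34 correlated positively, but the pairs share genes and this count was not set against pairs of other genes. With 9 cultures the lack of a call does not show that members varied apart. Over 45 pairs and 9 cultures, Pearson's r of log2 CPM ran from -0.48 to 0.87 with a median of 0.28. No pair passed adjustment over the 45 pairs with exact permutation tests, and 2 pairs had an unadjusted exact permutation p under 0.05. Gcg and Cck gave r = 0.87 (exact permutation p = 0.0025, adjusted p = 0.11) and rho = 0.83 (exact permutation p = 0.0083, adjusted p = 0.37), and r was 0.83 without the 2 cultures farthest from the median. Chga and Gip gave r = 0.69 (exact permutation p = 0.045, adjusted p = 0.75) and rho = 0.72 (exact permutation p = 0.037, adjusted p = 0.83), and r was 0.60 without the farthest 2. The lineage factors Neurog3 and Neurod1 gave r = -0.48 (exact permutation p = 0.19, adjusted p = 0.75) and rho = -0.55 (exact permutation p = 0.13, adjusted p = 0.89), with r = -0.44 without the farthest 2. Cultures come from 3 facilities, and facilities with 3 cultures each give too few points for a value within them.

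**Figure D3:**
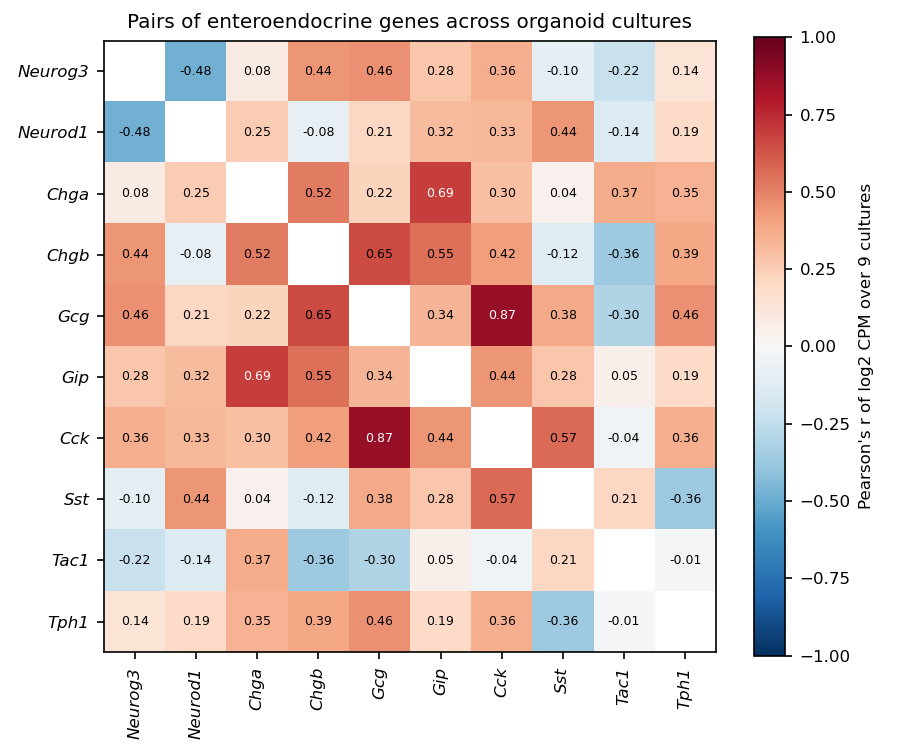
Pearson's r of log2 CPM (both libraries of a culture summed) for each pair of the 10 enteroendocrine genes over 9 organoid cultures, from -1 (blue) to 1 (red). Gcg with Cck stands out at 0.87, most other pairs are weakly positive, and Neurog3 with Neurod1 is lowest at -0.48.

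The genes most like Chga and Chgb over the 18 organoid libraries, by the mean of their Pearson's r with the pair, were Nts (0.73), Sqstm1 (0.71), Arl4c (0.71), Vps26c (0.70), Cttn (0.70), Zfp92 (0.70), Ap4e1 (0.70), Fdps (0.69), Cep120 (0.69) and Sec13 (0.68). Nts is the 1 hormone gene among them. Of the members, Gip came nearest, at rank 141 of the 12104 genes above background (r = 0.54), ahead of Gcg at rank 337 (0.47), and Sst was at rank 4714 (0.09). Among the genes most like Neurog3 were Commd1 (0.82), Intu (0.81), Hdgf (0.80) and Gm4924 (0.73). The nearest member to Neurog3 was Tph1 over the 18 libraries (0.38), but over the 9 cultures Tph1 gave 0.14 and Gcg (0.46), Chgb (0.44) and Cck (0.36) were nearer. These libraries share cultures and are described without a test.

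Germ-free origin left the members with no call. Of 12970 genes, 0.0540% were called between the 3 GF and the 6 SPF cultures, and 0 of 10 members were by edgeR or by DESeq2. In either tool 1 member had an unadjusted p under 0.05, a threshold at which the share of all genes was not counted. That member was Chgb. Its GF cultures (98.6 to 119 CPM, mean 107 ± 11.3 (SD, n = 3)) lay above all SPF cultures (54.2 to 92.4 CPM, mean 78.4 ± 14.8 (SD, n = 6)), with a log2 fold change of 0.44 ± 0.15 (SE), an unadjusted p of 0.010 and an adjusted p of 1. Chgb was the 1 member of 10 whose GF cultures all lay above the SPF cultures, as did those of 1.30% of all genes tested. Neurog3 was 19.9 ± 3.97 CPM (SD, n = 3) in GF and 15.2 ± 3.46 CPM (SD, n = 6) in SPF cultures, with overlapping ranges (log2 fold change 0.39 ± 0.21 (SE), unadjusted p = 0.092). The median log2 fold change was 0.08 for the members and -0.01 for all genes.

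Between the SPF facilities SE and SR, 0.00775% of 12908 genes were called. No member was, by edgeR (0 at an unadjusted p under 0.05) or by DESeq2 (1 at an unadjusted p under 0.05). Here too the share of all genes at the unadjusted threshold was not counted. Tac1 had the largest fold change of the members. It lay at 7.74, 5.12 and 8.08 CPM in the SE cultures and at 4.18, 4.23 and 3.13 CPM in the SR cultures, without overlap (log2 fold change 0.86 ± 0.40 (SE), unadjusted p = 0.053, adjusted p = 1). It was the 1 member of 10 with SE cultures all above SR, as were 4.49% of all genes. The remaining members had overlapping ranges, and their log2 fold changes ran from -0.65 for Tph1 to 0.23 for Sst.

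Between libraries labelled TNF-treated and untreated, 1.39% of 12104 genes were called in organoids and 0 of 10 members, by edgeR or DESeq2. The fold changes of the members had a median of -0.16 (0.00 over all genes), and 8 of 10 were negative. At an unadjusted p of at most 0.05 with a log2 fold change of at least 0.5, 2 members passed, both lower, as did 2.22% of all genes. They were Neurod1 and Tac1. With the culture as a replicate block, the number of genes called in all rose from 168 to 397, still with 0 of 10 members.

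Neurod1 lay at 5.35 to 14.2 CPM (median 10.1) in the 9 libraries labelled untreated and at 1.99 to 12.3 CPM (median 5.90) in those labelled TNF-treated. The ranges overlapped, but within its own culture the library labelled TNF-treated was lower in 9 of 9 cultures, as for 1.87% of all genes. The fall ran from 0.08 in culture Z909 and 0.09 in culture Z912 to 2.39 in culture Z911 on the log2 scale. The log2 fold change was -0.70 ± 0.29 (SE) with an unadjusted p of 0.024 and an adjusted p of 0.42, and with the replicate block it was -0.78 ± 0.29 (SE; adjusted p = 0.17). The library of culture Z911 labelled TNF-treated, the shallowest among the organoids with 11440041 counts, held 22 Neurod1 counts, and the other library of the culture held 281.

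Tac1 lay at 1.27 to 10.5 CPM (median 6.73) in the libraries labelled untreated and at 1.08 to 6.91 CPM (median 3.57) in those labelled TNF-treated. It was lower in 7 of 9 cultures, by up to 2.44 on the log2 scale in culture Z910, and higher by 2.38 in culture Z909 and by 0.27 in culture Z918. The log2 fold change was -0.86 ± 0.38 (SE) with an unadjusted p of 0.034 and an adjusted p of 0.49. Both genes passed the unadjusted threshold in 1 of the 9 fits that left out 1 culture, the fit without Z909, 1 of them passed in 7 fits, and neither passed without Z911, with values of -0.57 for Neurod1 and -0.69 for Tac1. Without Z909, Tac1 stood at -1.16 (unadjusted p = 0.0039, adjusted p = 0.20).

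The upstream factor Neurog3 differed in sign from Neurod1, but neither was called and the difference between the genes was not tested. Neurog3 was higher in 6 of 9 cultures in the library labelled TNF-treated, with medians of 17.0 and 20.9 CPM (untreated and TNF-treated). Its log2 fold change was 0.24 ± 0.21 (SE, unadjusted p = 0.27). The granins and hormones stayed near 0, from -0.18 ± 0.13 (SE) for Chga to -0.05 ± 0.16 (SE) for Cck. Tph1 gave 0.62 ± 0.83 (SE).

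Around the members, the endocrine lists held no called gene, with 0 of 17 transcription factors, 0 of 15 granule genes, 0 of 6 hormones, 0 of 5 serotonin genes and 0 of 5 nutrient-sensing genes tested. At the unadjusted threshold with the minimum fold change, 1 hormone gene and 1 nutrient-sensing gene passed, Ghrl (-0.51, unadjusted p = 0.041) and Ffar2 (-1.51, unadjusted p = 0.019). In the Notch and secretory-fate list, 1 of 10 genes was called. It was Hes6, a Hes-family gene of differentiating secretory cells, with a log2 fold change of -0.39 ± 0.08 (SE, adjusted p = 0.0045). Of 6 stem cell markers 3 were called lower, where 1.26% of all genes were, Olfm4 (-1.82 ± 0.29 (SE)), Ascl2 (-1.70 ± 0.23 (SE)) and Slc12a2 (-0.33 ± 0.07 (SE)). With the labels exchanged, all of these signs turn. Their part in the values of Neurod1 and Tac1 was not tested.

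**Figure D4:**
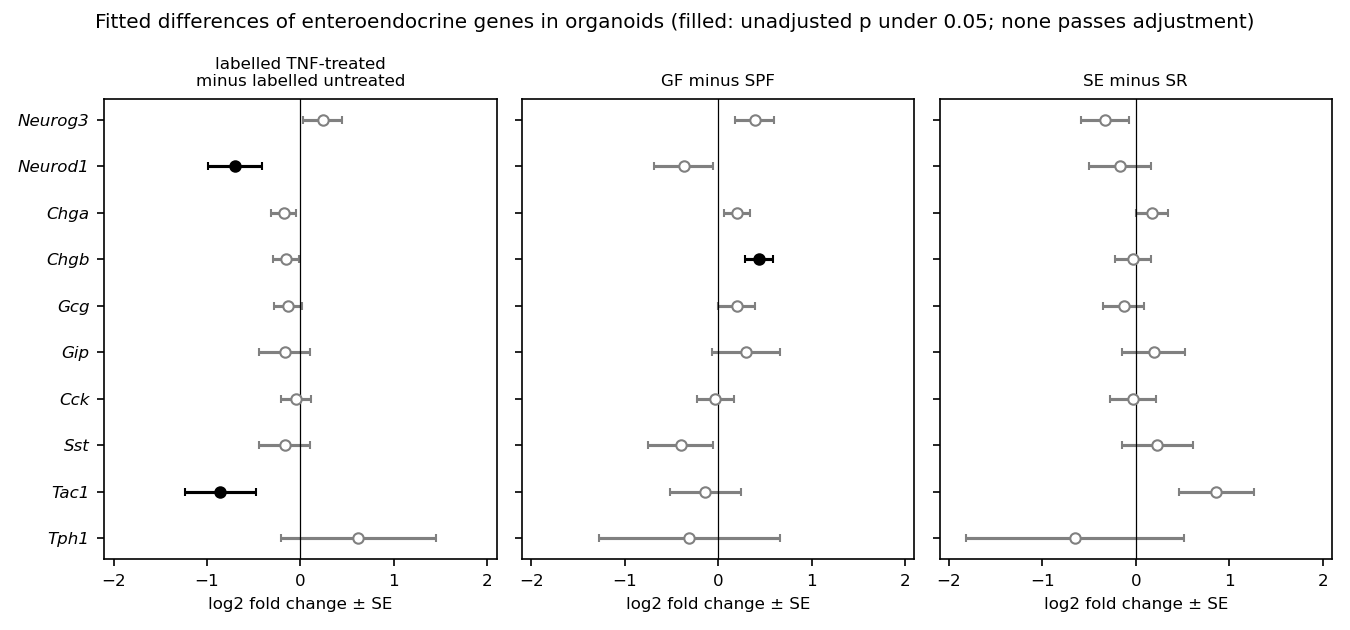
Log2 fold change with its SE (edgeR) of the 10 enteroendocrine genes between the treatment labels, between GF and SPF cultures and between SE and SR cultures, filled at an unadjusted p under 0.05. Neurod1 (-0.70) and Tac1 (-0.86) are filled in the first panel and Chgb (0.44) in the second, and no point passes adjustment over all genes.

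The difference between the labels did not differ detectably between GF and SPF cultures. The interaction called 0 of 12640 genes in edgeR (0% of those tested) and 0 members at an unadjusted p under 0.05, and DESeq2 called 1 gene, no member. Estimates for the members ran from -0.37 ± 0.62 (SE) for Neurod1 to 0.42 ± 0.44 (SE) for Neurog3, with SEs from 0.26 (Chga and Chgb) to 1.85 (Tph1). These values come from a fit without a culture term. With the culture as a replicate block the interaction called 0 genes, and the median estimate of the members was 0.07 in place of 0.18. In m-ICc12 cells, 0.110% of 11861 genes were called between the labels. Gcg was the 1 member with enough counts to be tested there, with a log2 fold change of 0.54 ± 1.44 (SE, unadjusted p = 0.71), and DESeq2 did not call it either.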

How the data were processed

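The authors checked reads (single-end) with FastQC, trimmed them with Trimmomatic, aligned them with STAR to GRCm38 and counted them per gene. The paper names GenomicRanges as the counter and the submitters' processing notes name featureCounts and STAR 2.5.4b. Libraries were stranded and poly-A selected per the labels, and the use of strand and of reads with several alignments in the counting is not given in the sources used here. The deposited values are whole-number counts without normalisation for 22524 genes. GENCODE vM21 gave 22214 of them a symbol and supplied exon lengths, and promoter sequences are RefSeq's (GRCm38.p6).

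CPM used TMM over all libraries. A gene was tested where 50% or more of the libraries in any compared group reached 10 counts, by edgeR's quasi-likelihood F-test and Benjamini-Hochberg adjustment over all genes tested, at 0.05. The facility comparisons summed both libraries of a culture. An SE is the size of the log2 fold change divided by the square root of its F. Correlations were of log2 CPM, to which a prior of 2 counts had been added. Depth sets the precision: a floor of 3 counts and exact (Clopper-Pearson) 95% intervals cover counting error only. Pairs of members used exact permutation tests of 362880 pairings. Groups came from the sample labels. The 2 libraries of a culture share the culture number in the sample titles, so they come from 1 mouse, and their deviations from the group means correlated (r from 0.0821 to 0.311, mean 0.171, against -0.020 for other pairs of libraries). The members and lists were chosen with earlier results of these data known. The text names all members, the list genes highest in organoids or called, and the genes most like Chga and Chgb or Neurog3. Some genes that this rule names are not reported here.

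Alternatives were DESeq2, no filter on low counts, the replicate block, exchanged treatment labels, the facility as a covariate, 1 label only, 1 fit of all 27 libraries, no treatment term, CPM without log or TMM, and each replicate left out. Leave-one-out values of the pairs were added after the data were seen. On simulated counts the test was checked for recovery of known changes. R 4.3.3 ran edgeR 4.0.16 and DESeq2 1.42.0. Python 3.11.15 ran scipy 1.17.1, pandas 2.3.3 and numpy 2.4.6.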

Additional observations from a re-analysis of the deposited data

Results flagged for a closer look

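In 20 groups of 9 organoid libraries (10 genes by 2 treatment labels), 2 held a library whose gap to its nearest neighbour exceeded Dixon's 95% critical value for 9 samples (0.493 of the range), where chance gives about 1 in 20 groups. Neurod1 was highest in culture Z909 among the libraries labelled TNF-treated, at 12.3 CPM, with the other 8 between 1.99 and 6.98 CPM and a gap of 0.514 of the range. The other library of culture Z909 was close to it, at 13 CPM. Tph1 was highest in culture Z910 among the libraries labelled untreated, at 4.74 CPM, with the others between 0 and 2.21 CPM and a gap of 0.535 of the range. Its partner library held 4.43 CPM.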

How the results depend on the processing

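The numbers of members called in the 8 comparisons, and of member pairs past adjustment, stayed within 1.5 times of their reported values under all alternatives run. Leaving out 1 replicate gave 3 to 4 members between cultures, 9 to 10 against MEFs, 10 against m-ICc12 cells and 0 in the others. Against both cell lines the filter had fixed the direction of 9 of 10 members, so those counts are descriptions. The replicate block changed no call of a member. Exchanging the treatment labels turned the sign of the organoid label differences, to 0.18 (Chga), 0.15 (Chgb), -0.24 (Neurog3), 0.70 (Neurod1), 0.05 (Cck), 0.13 (Gcg), 0.17 (Gip), 0.17 (Sst), 0.86 (Tac1) and -0.62 (Tph1). With 1 label alone, uncalled differences near 0 also changed sign, for GF against SPF in Cck (0.00, untreated) and Tac1 (0.13, TNF-treated) and for SE against SR in Chgb (0.09, untreated) and Chga (-0.00, TNF-treated). Uncalled values that changed sign when 1 culture was left out ranged from -0.08 to 0.02 for Cck between the labels. For GF against SPF they ranged from -0.12 to 0.08 (Cck), -0.26 to 0.01 (Tac1) and -0.72 to 0.14 (Tph1). For SE against SR they ranged from -0.18 to 0.16 (Chgb), -0.37 to 0.15 (Neurod1), -0.35 to 0.14 (Cck), -0.45 to 0.07 (Gcg), -0.41 to 0.49 (Gip), -0.42 to 0.49 (Sst) and -1.24 to 0.22 (Tph1). Tph1 against MEFs ranged from 5.16 to 8.37. The cause was not tested.

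Counts over all genes moved more. The label comparison in organoids called 168 genes (15 higher), 397 with the replicate block (137 higher) and 218 in DESeq2 (33 higher), and with exchanged labels 153 of the 168 were higher. DESeq2 called 24 genes in place of 7 between GF and SPF, 9 in place of 1 between SE and SR, 2556 in place of 1448 between cultures and 46 in place of 13 in m-ICc12 cells. The comparison of cultures without a treatment term called 829. In m-ICc12 cells 30 were called without the filter and 6 with the block, and between SE and SR 2 without the filter. Without m-ICc12 replicate 2, 93 genes were called between the labels (61 higher, against 2 of 13), and without culture Z909, 9 between SE and SR. Without any 1 of the cultures Z917, Z918 and Z919, 4 were called between GF and SPF. With the libraries of 1 label alone, 4 were called between GF and SPF under either label. Without Z910 or Z912, or with the libraries labelled untreated, 0 were called between SE and SR.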

Other observations

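The level of the members in the cell lines can be given as a share of their organoid level. Counts and total counts were pooled here over all libraries of a system, under both labels. The fold ratios above used only those labelled untreated. The level in m-ICc12 cells was a median of 0.166% of the organoid level over the 10 members (0% to 0.436%). In MEFs it was 0.184% (0% to 1.09%). For 6 goblet cell markers the medians were 0.228% in m-ICc12 cells and 0.146% in MEFs, and for 6 enterocyte markers 0.234% and 0.228%. For 6 stem cell markers they were 0.390% and 0.663% (highest 15.4% and 9.46%), and for 6 Paneth cell markers 0.148% and 0% (highest 31.3% and 0.126%).

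The 10 members together summed to 281 to 670 CPM over the 18 organoid libraries, with Gcg the highest member. The sum was 459 to 643 CPM in the GF libraries, 338 to 533 CPM in the SR libraries and 281 to 670 CPM in the SE libraries, with overlapping ranges.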
